A study of Bos taurus with 30 samples.

Results

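In day 15 bovine conceptuses, 5 genes of the gonadotropins were followed: FSHB, CGA and LHB, which encode subunits of the pituitary gonadotropins, and FSHR and LHCGR, which encode their receptors. They are 5 of the 35092 gene IDs in the count table, found by gene ID (FSHB 281171, CGA 280749, LHB 280839, FSHR 281172 and LHCGR 281900). FSHB was chosen by its values, because its counts were higher in the extra-embryonic membranes (EEM) than in the embryonic disc (ED), so that difference is described here without a test. The other 4 were taken as its partner subunit, the sister beta subunit and the receptors. The question was whether a hormone gene of the pituitary, its partner and its receptor are transcribed together in either tissue lineage, and whether this differs between in vitro produced (IVP) embryos and those conceived in vivo (IVV).

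Follicle-stimulating hormone is a dimer of a beta subunit, encoded by FSHB, and the alpha subunit encoded by CGA, which luteinizing hormone and thyroid-stimulating hormone share. In adults the dimer is assembled in gonadotrope cells of the pituitary, where GnRH and activin raise FSHB transcription and inhibin and follistatin oppose it, and it acts on FSHR of granulosa and Sertoli cells through cAMP. LHB encodes the beta subunit of luteinizing hormone, which acts on LHCGR. Human and horse trophoblast secrete a chorionic gonadotropin that contains the CGA product, and no such hormone is known from cattle.

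RNA of 17 Holstein embryos (8 IVP and 9 IVV) gave 30 libraries, with the ED of 7 IVP and 9 IVV embryos and the EEM of 6 IVP and 8 IVV embryos. Libraries of both tissues exist for 13 embryos, of which 5 are IVP and 8 IVV. IVP embryos came from oocytes of slaughterhouse ovaries that were matured, fertilised and cultured in vitro, and were placed in recipient cows on day 7. IVV embryos came from a small number of donor cows superovulated with FSH, given PGF2α and GnRH and inseminated. The recipients of IVP embryos were given PGF2α and GnRH as well. The same Holstein bull sired both kinds, all embryos were flushed from a uterus on day 15, and embryos without a visible ED were discarded by the study. The procedure cannot be told apart from the cow that carried the embryo, nor from the FSH given to donors. Nor can it be told apart from a different mix of embryo sexes, on which the XIST counts below bear. Labels name embryos, and nothing in them gives an embryo's sex, length or dam, so embryos were taken as the replicates. Per the study's methods the donors and the recipients were 2 cows each, so embryos of a procedure shared cows, and p-values do not include the spread between cows.

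Libraries held 48713218 to 63037371 counts on genes, with group medians between 53960994 and 55230430. A gene was called at the floor in a library at 3 counts or fewer, which is 0.0476 to 0.0616 CPM (counts scaled to a library of 1000000) before scaling. Such limits cover counting error only. Epiblast markers marked the ED, with NANOG at 157 to 2862 counts in ED libraries and 0 to 10 in EEM libraries. Trophoblast markers were found in both tissues. The summed CPM of the trophoblast list (20 of 22 genes found) was 14100 to 76000 in the ED of IVP, 34200 to 52000 in the ED of IVV, 37700 to 88400 in the EEM of IVP and 38000 to 70400 in the EEM of IVV embryos. Between the tissues, edgeR's quasi-likelihood test called 6 of 18 trophoblast genes higher in the EEM, beside 8.16% of all genes, among them KRT18 (log2 difference 0.44), ETS2 (0.41), IFNT2 (0.78) and IFNT3 (0.58), and called TKDP4 (-2.35) and PAG12 (-1.74) higher in the ED. It called 8 of 18 hypoblast genes, each higher in the ED, beside 12.8% of all genes, among them APOA2 (-2.22) and HNF4A (-0.77). TF and CUBN are in that count and had at most 10 counts in each EEM library, so they passed the filter through the ED alone and had to differ. All 6 epiblast genes tested were called higher in the ED, beside 12.8% of all genes. NANOG is among these 6 and also passed the filter through the ED alone, so it had to differ. The part of these markers in the tissue differences of FSHB and CGA was not tested. PPARG in the trophoblast list and SOX2 in the epiblast list were listed at 0 in all libraries. Because these are bulk libraries, fewer cells of a type and less RNA per cell cannot be told apart in anything that follows.

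FSHB transcripts were found in both tissues and under both procedures, at low levels and with a wide spread between embryos. Over the 30 libraries its counts ran from 1 to 573 with a median of 36.5, and 28 libraries were above the floor. In the ED of IVP embryos the counts were 6 at the lowest, 15 at the median and 19 at the highest. In the ED of IVV embryos they were 1, 34 and 168. In the EEM they were 13, 51 and 117 for IVP embryos and 3, 116.5 and 573 for IVV embryos. The ED of IVP embryos was the lowest and most even of the 4 groups, and the EEM of IVV embryos reached the highest values. Both libraries at the floor came from a single IVV embryo, VE4.

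On the CPM scale, with TMM factors over all libraries, the ED of IVP embryos had a mean FSHB of 0.256 ± 0.0739 (SD, n = 7) and the ED of IVV embryos 1.09 ± 1.02 (n = 9). The EEM had 1.11 ± 0.832 (n = 6) in IVP and 3.5 ± 3.75 (n = 8) in IVV embryos. From low to high by median the order was ED of IVP (0.259 CPM), ED of IVV (0.54), EEM of IVP (0.993) and EEM of IVV (2.33). The ranges of all neighbours in this order overlapped, so that the order rests on the middle of each group and not on separate groups.

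**Figure D1:**
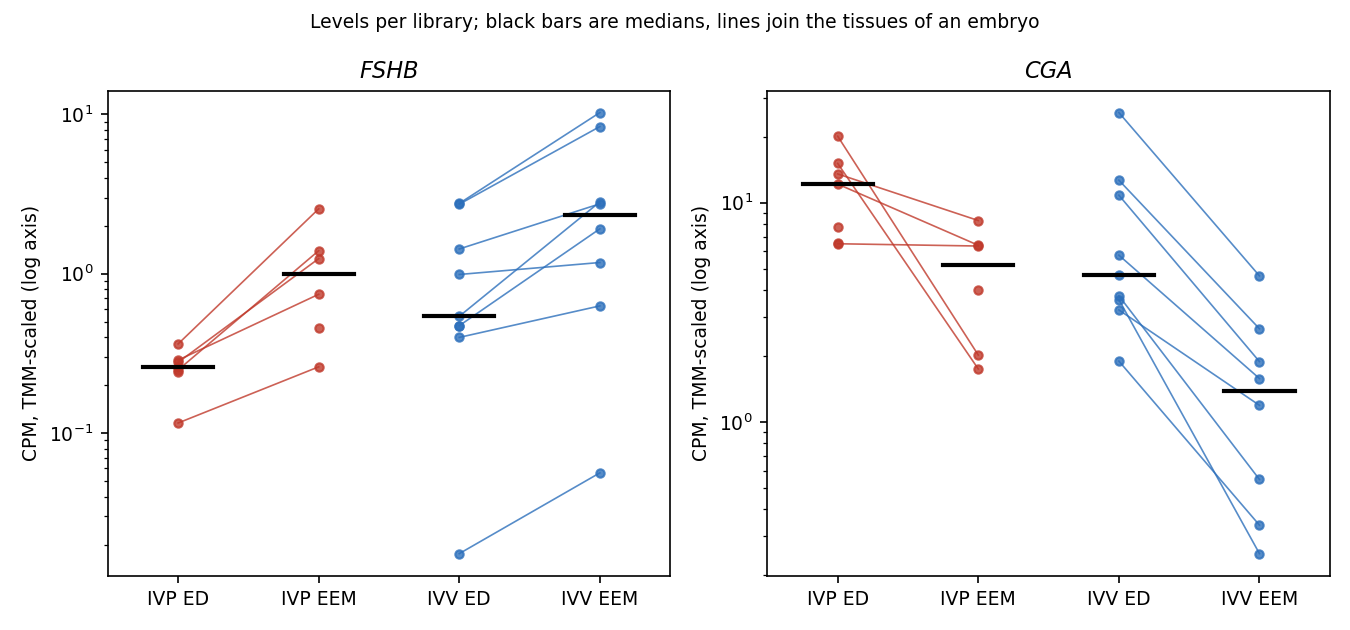
FSHB (left) and CGA (right) in CPM with TMM factors on log axes, by tissue and procedure, 1 point per library, with red for IVP and blue for IVV embryos. Black bars are group medians and thin lines join the ED and EEM of the same embryo. FSHB lines climb from ED to EEM in 13 of 13 embryos, and CGA lines descend in 13 of 13, by very little in IVP11, where the order turned without TMM factors.

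In each of the 13 embryos with both tissues, the FSHB level was higher in the EEM, which is the pattern for which the gene was chosen. Among IVP embryos, IVP10 had 15 counts in the ED and 61 in the EEM, IVP11 had 11 and 71, and IVP14 had 18 and 41. IVPF13 had 19 and 117, and IVPF14 had 6 and 13. These are EEM to ED ratios of 2.25 to 7.04, with a median of 4.48. Of the 8 IVV embryos, VE4 had 1 count in the ED and 3 in the EEM, both at the floor, and gets no ratio. The other 7 had ratios from 1.19 (VE19, 49 and 55 counts) to 5.22 (VE29, 34 and 128 counts), with a median of 3.07. The widest absolute gap was in VE3, where the EEM had 573 counts and the ED 168. The fitted EEM minus ED difference was 1.63 ± 0.226 on the log2 scale (SE, embryo as a block), 2.09 in IVP and 1.40 in IVV embryos.

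CGA, the partner subunit, was detected in every library and had the opposite distribution. Its counts ran from 14 to 1278 over the 30 libraries, with a median of 271. In the ED of IVP embryos the lowest, median and highest counts were 287, 702 and 1086, and in the ED of IVV embryos they were 108, 307 and 1278. In the EEM they were 80, 276 and 414 for IVP and 14, 67.5 and 217 for IVV embryos. IVP embryos had a mean CGA of 11.7 ± 5.08 CPM (SD, n = 7) in the ED against 4.8 ± 2.64 CPM (n = 6) in the EEM. IVV embryos had 8.03 ± 7.58 CPM (n = 9) against 1.64 ± 1.47 CPM (n = 8).

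CGA in CPM was below the ED level in the EEM of 13 of 13 embryos. Without TMM factors this held in 12, and IVP11 had 5.32 counts per 1000000 in the ED against 5.44 in the EEM. The ED held 4.36 times the CGA of the EEM, a log2 difference of -2.12 (SE 0.271, 95% interval -2.69 to -1.56) with an adjusted p = 7.15e-06 (edgeR's quasi-likelihood test, Benjamini-Hochberg over all genes). The median ED to EEM ratio was 1.91 over the 5 IVP embryos, from 1.03 in IVP11 to 9.95 in IVP10. Over the 8 IVV embryos it was 5.58, from 2.72 in VE29 to 14.4 in VE3. Among all genes tested between the tissues 21% had an adjusted p under 0.05, and 12.8% were lower in the EEM. Besides FSHB, which gets no test here, 2 members passed the count filter in this comparison and CGA was the 1 called.

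CGA thus lay on the side of the tissue contrast opposite to the one for which FSHB was chosen. This held in 13 of 13 embryos with TMM factors, and in 12 (all but IVP11) without them. The FSHB side was set by that choice, so the count rests on CGA alone, and FSHB of VE4 was at the floor in both tissues. VE3 had the highest FSHB count of the EEM (573) together with the lowest CGA count (14). IVPF14 had the lowest FSHB count of the IVP EEM (13) with the highest CGA count (414), and IVPF13 had the highest FSHB count of that group (117) with the lowest CGA count (80). Within the EEM of IVP embryos Pearson's r between log2 CPM of FSHB and CGA was -0.698 (exact permutation p = 0.129, adjusted p = 0.301, n = 6) and Spearman's rho was -0.714 (exact permutation p = 0.136, adjusted p = 0.317). Without the 2 libraries farthest from the median, r was -0.138. In the EEM of IVV embryos r was 0.124 and rho -0.143, in the ED of IVP embryos 0.0473 and 0.393, and in the ED of IVV embryos 0.495 and 0.317. Every one of these had an adjusted permutation p of 0.301 or more, over a family of 14 relations.

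In IVV embryos the FSHB levels of the ED and the EEM went together. Over the 8 IVV embryos with both tissues, log2 CPM of FSHB in the ED and EEM had r = 0.944 (exact permutation p = 0.00141, adjusted p = 0.0197) and rho = 0.881 (exact permutation p = 0.00724, adjusted p = 0.0507). The r was 0.765 without the 2 embryos farthest from the median. CGA gave r = 0.886 (exact permutation p = 0.00402, adjusted p = 0.0281) and rho = 0.881 (exact permutation p = 0.00724, adjusted p = 0.0507), with r = 0.74 without 2 embryos. By rank, neither relation passed 0.05 after adjustment. With 5 IVP embryos the relation was not computed for that procedure.

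**Figure D2:**
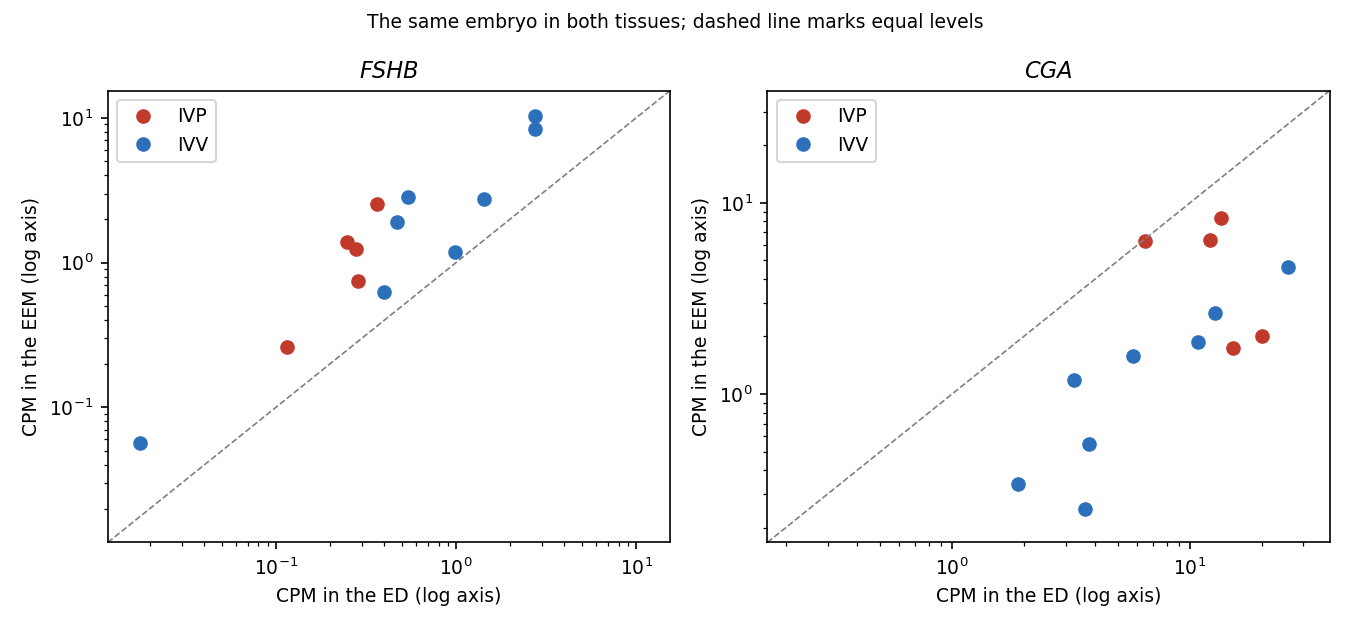
CPM in the EEM (vertical) against CPM in the ED (horizontal) of the same embryo for FSHB (left) and CGA (right), on log axes, 1 point per embryo, with red for IVP and blue for IVV. The dashed line marks equal levels. All 13 FSHB points lie above it and all 13 CGA points below it, with CGA of IVP11 (6.5 and 6.34 CPM) almost on it and on the other side without TMM factors.

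Between the procedures, CGA was the member that differed in the EEM, where it was higher in IVP embryos. The 6 IVP embryos had 80 to 414 counts and the 8 IVV embryos 14 to 217. In CPM, 3 IVP embryos were above all IVV embryos and 5 IVV embryos were below all IVP embryos, with the rest overlapping. The fitted level was 4.13-fold higher in IVP embryos (log2 difference 2.05, SE 0.447, 95% interval 1.13 to 2.97, adjusted p = 0.007 in edgeR's quasi-likelihood test). Of the 14718 genes tested in the EEM 3.81% were called and 2.29% were called as higher in IVP, and of the 4 members that passed the count filter 1 was. On log2 CPM alone, an exact two-sided permutation test of CGA gave p = 0.0183 and, over the 10 such tests, an adjusted p = 0.183. The call was lost without the surrogate variable (log2 difference 1.56, adjusted p = 0.0931), without the IVP embryos titled without F (2.22, adjusted p = 0.102) and with the XIST level as a covariate (1.79, adjusted p = 0.473).

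FSHB in the EEM had a median of 51 counts in IVP and 116.5 in IVV embryos, but it did not pass the test. Of the IVV embryos 4 were above every IVP embryo and VE4 was below them all. The fitted IVP minus IVV difference was -1.69 on the log2 scale (SE 0.667, 95% interval -3.07 to -0.32, adjusted p = 0.201 in edgeR's quasi-likelihood test). The difference of mean log2 CPM was -0.98, with p = 0.337 in an exact two-sided permutation test. The value was -0.93 without VE3 (adjusted p = 0.607) and -1.24 without VE28 (adjusted p = 0.451), the libraries with the most FSHB. Without VE19 it was -1.69 with a smaller SE (0.366) and an adjusted p = 0.000261.

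FSHB in the ED had a median of 15 counts in IVP and 34 in IVV embryos, and the difference just missed the threshold. All 7 IVP embryos (6 to 19 counts) lay under the IVV median of 34, and 8 of the 9 IVV embryos (24 to 168 counts) lay above the highest IVP embryo. The exception was VE4, with 1 count. The log2 difference was -1.98 (SE 0.617, 95% interval -3.26 to -0.71, adjusted p = 0.0557 in edgeR's quasi-likelihood test), and an exact permutation test of log2 CPM gave p = 0.0733. DESeq2 put FSHB past the threshold (adjusted p = 0.00726), as did the edgeR fit without VE4 (log2 difference -2.21, adjusted p = 0.0065).

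CGA in the ED had a log2 difference of 0.93 (SE 0.396, 95% interval 0.11 to 1.75, adjusted p = 0.194 in edgeR's quasi-likelihood test). Its IVP counts of 287 to 1086 lay within the IVV range of 108 to 1278, and 6 of the 9 IVV libraries had a lower CPM than all IVP libraries. In the ED 6.34% of the 15733 genes tested were called by edgeR, and 0 of the 3 members that passed the filter were. At an unadjusted p under 0.05 there were 2 members, beside 18.4% of all genes, and DESeq2 called 1 member and 1512 genes in all.

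The EEM minus ED difference of the members was not shown to differ between the procedures. For FSHB the interaction of tissue and procedure was 0.69 on the log2 scale (95% interval -0.23 to 1.61, adjusted p = 0.673), and for CGA it was 0.88 (95% interval -0.19 to 1.95, adjusted p = 0.608). In edgeR's quasi-likelihood test 0 of the 5 members were called, 0 had an unadjusted p under 0.05, and DESeq2 called 0. Of all genes 1.02% were called, 0.918% with a larger EEM minus ED difference in IVP embryos. Both intervals reach beyond 1 log2 unit.

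**Figure D3:**
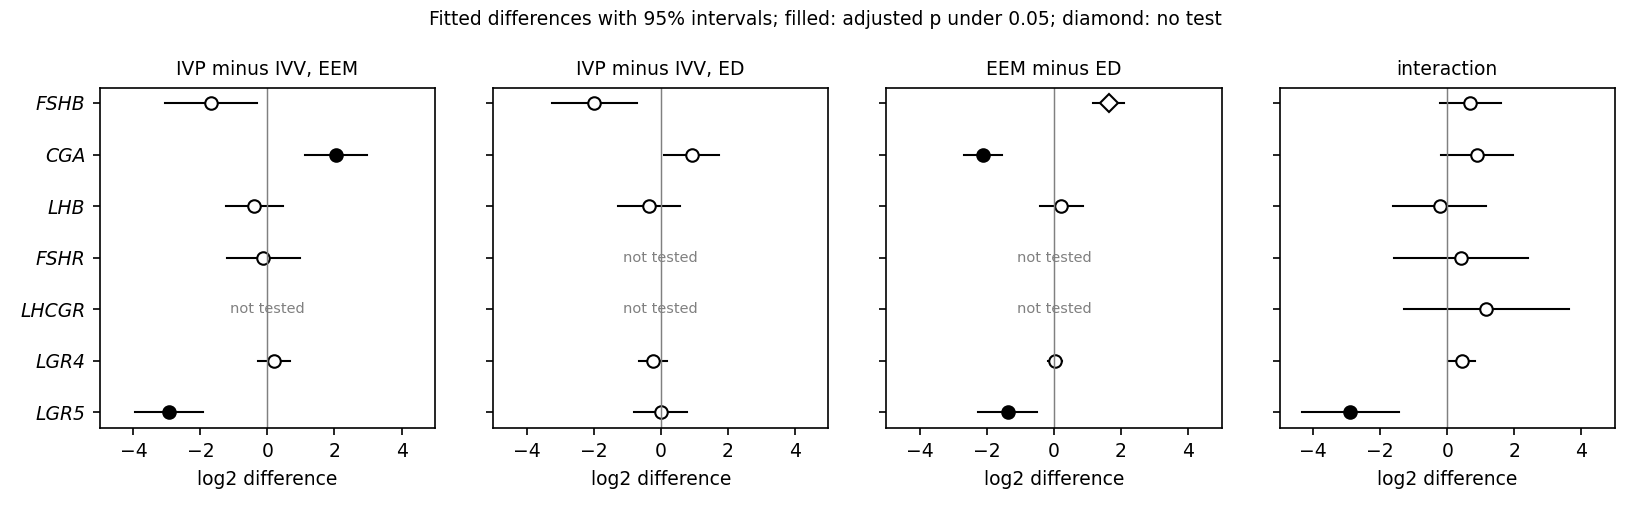
Fitted log2 differences (points) with 95% intervals (lines) for the members and for LGR4 and LGR5, with IVP minus IVV in the EEM and in the ED, EEM minus ED, and the interaction of tissue and procedure in the 4 panels. Filled circles have an adjusted p under 0.05, open circles do not, and the diamond marks FSHB between the tissues, for which no test is given. CGA is filled in the EEM panel (2.05) and the tissue panel (-2.12).

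XIST encodes the RNA that coats an inactive X chromosome, and its level was uneven between the procedures and within the IVV embryos. It had 0 to 16 counts in the ED and 0 to 30 in the EEM of IVP embryos. In 7 of the 9 IVV embryos the ED held 3056 to 9864 counts, and the other 2, VE3 and VE5, held 1 count in the ED and 11 in the EEM. Those embryos had FSHB counts of 168 (VE3) and 93 (VE5) in the ED and 573 and 141 in the EEM, and CGA counts of 220 and 375 in the ED and 14 and 81 in the EEM. With XIST as a further covariate, chosen after its values were seen, the FSHB difference was -3.13 in the EEM (adjusted p = 0.0452) and -2.87 in the ED (adjusted p = 0.0132). The CGA difference in the EEM was then 1.79 (adjusted p = 0.473). The part of XIST in these differences was not tested beyond this. Embryo sex is not in the labels, so the procedure cannot be told apart from a different mix of sexes in any IVP minus IVV difference.

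The titles of IVP embryos carry the prefix IVP or IVPF, which is not explained in the labels. FSHB in the EEM was 1.13 ± 0.341 CPM (SD, n = 3) for IVP and 1.09 ± 1.27 (n = 3) for IVPF titles, and CGA was 4.92 ± 2.51 and 4.68 ± 3.33 CPM. In the ED, FSHB was 0.271 ± 0.0198 (n = 3) and 0.244 ± 0.101 CPM (n = 4), and CGA was 12.9 ± 6.84 and 10.7 ± 4.2 CPM. The prefixes were not tested against each other.

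LHB, the sister beta subunit, was present at 7 to 53 counts in all 30 libraries. The group means were 0.379 ± 0.164 CPM (SD, n = 7) and 0.468 ± 0.251 CPM (n = 9) in the ED of IVP and IVV embryos and 0.356 ± 0.186 (n = 6) and 0.534 ± 0.271 CPM (n = 8) in the EEM. All 4 ranges overlapped. LHB was higher in the EEM in 3 of 5 IVP and 5 of 8 IVV embryos. The EEM minus ED difference was 0.23 (95% interval -0.41 to 0.87, adjusted p = 0.628 in edgeR's quasi-likelihood test). IVP minus IVV was -0.39 in the EEM (95% interval -1.24 to 0.46, adjusted p = 0.859) and -0.35 in the ED (95% interval -1.27 to 0.58, adjusted p = 0.783). A decrease in IVP embryos of up to about 1 log2 unit stayed within both intervals. The neighbours of LHB include RUVBL2 (3840 to 13755 counts per library, rho with LHB -0.103 over the 14 EEM libraries) and, further out, GYS1 (rho 0.0725) and FTL (0.231) on that side and NTF4 (0.763) and KCNA7 (0.587) on the other. The libraries did not keep strand, so reads of overlapping or antisense transcripts cannot be told apart, and LHB at this depth is uncertain for that reason.

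The receptors were barely detected. FSHR had 0 to 23 counts per library with a median of 8, and 25 of the 30 libraries were above the floor. The lowest, median and highest counts were 0, 9 and 23 in the ED of IVP, 2, 8 and 14 in the ED of IVV, 6, 8.5 and 17 in the EEM of IVP and 1, 10 and 21 in the EEM of IVV embryos. The groups overlapped throughout. FSHR passed the count filter within a tissue in the EEM alone, where IVP minus IVV was -0.12 (95% interval -1.21 to 0.97, adjusted p = 0.991 in edgeR's quasi-likelihood test).

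LHCGR had 0 to 13 counts with a median of 4.5, and 20 of 30 libraries were above the floor. The counts in the ED were 0, 4 and 9 for IVP and 2, 9 and 13 for IVV embryos, and in the EEM 0, 4.5 and 11 and 0, 5.5 and 8. LHCGR did not pass the count filter within either tissue or in the comparison of the tissues. The filter over the 4 groups kept it for the interaction, and in that fit EEM minus ED was 0.63 in IVP (adjusted p = 0.795) and -0.53 in IVV embryos (adjusted p = 0.611). The interaction was 1.17 (95% interval -1.29 to 3.62, adjusted p = 0.865 in edgeR's quasi-likelihood test). At this depth differences of the size of these intervals were not detectable.

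**Figure D4:**
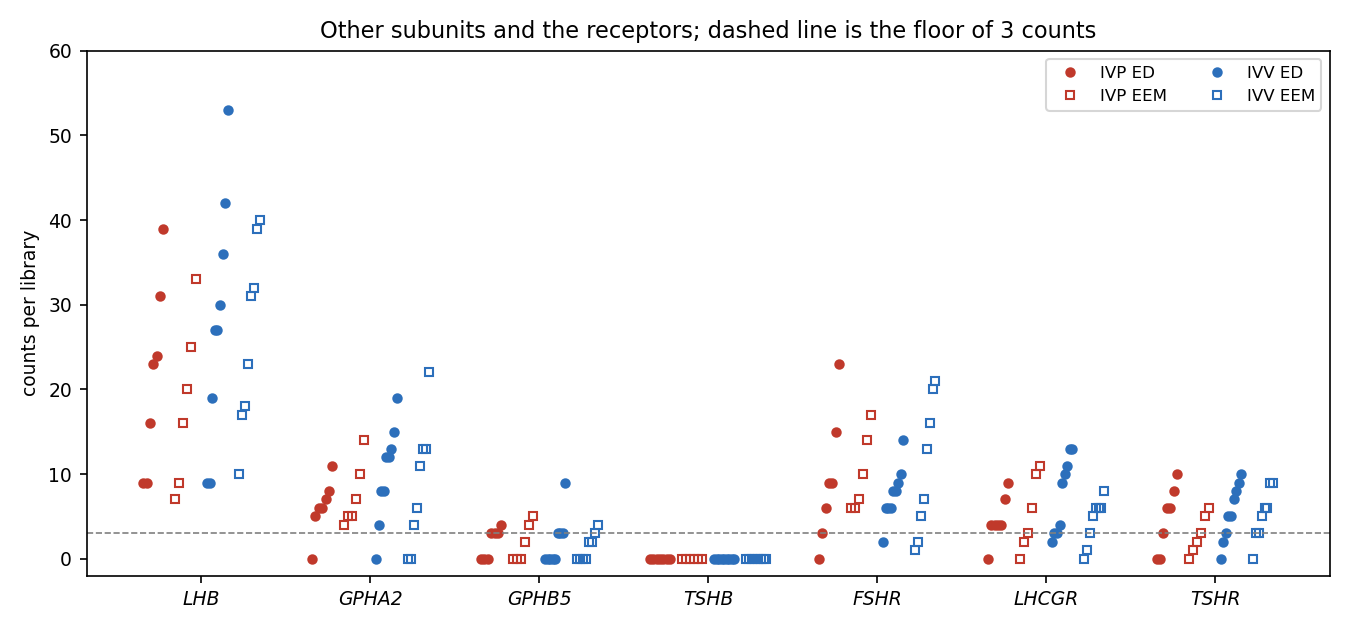
Counts per library of the remaining subunits (LHB, GPHA2, GPHB5 and TSHB) and of the receptors FSHR, LHCGR and TSHR on a linear axis, with filled circles for ED and open squares for EEM, red for IVP and blue for IVV. The dashed line is the floor of 3 counts. TSHB is at 0 in all 30 libraries, and the receptors stay at or below 23 counts.

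The rest of the hormone family was also low. TSHB, the beta subunit of thyroid-stimulating hormone, had 0 of 1641779542 counts over the 30 libraries. This allows up to 0.00183 CPM if the gene could be counted. PPARG and SOX2 were at 0 in all libraries as well, and whether such a row marks absence was not tested. GPHA2 and GPHB5, the subunits of thyrostimulin, had 0 to 22 and 0 to 9 counts. The thyrotropin receptor TSHR had 0 to 10 counts. GPHA2 was tested in the EEM between procedures (0.11, adjusted p = 0.991 in edgeR's quasi-likelihood test), and GPHB5, TSHB and TSHR were tested in no comparison.

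The hormone receptors have relatives, LGR4 and LGR5, which bind R-spondins and amplify Wnt signals. LGR4 had 459 to 2827 counts in every library and passed no test. LGR5 had 0 to 5 counts in the EEM of IVP and 11 to 41 in the EEM of IVV embryos, and these ranges did not overlap. Its ED counts were 11 to 70 in IVP and 20 to 56 in IVV embryos. LGR5 was lower in the EEM of IVP embryos (log2 difference -2.94, SE 0.497, adjusted p = 0.000676 in edgeR's quasi-likelihood test) and lower in the EEM than in the ED (-1.39, adjusted p = 0.0249), with an interaction of -2.89 (adjusted p = 0.0484). LGR5 had 10 counts or more in 0 of 6 IVP and 8 of 8 IVV libraries of the EEM. It entered the EEM comparison through the IVV embryos alone, and its call there is no support for the list. The tissue and interaction values draw in part on the same IVP libraries of 0 to 5 counts, and their calls are no support either. In the ED the difference between procedures was -0.00 (95% interval -0.80 to 0.79). LGR6 (0 to 33 counts), RXFP2 (0 to 4 counts) and RXFP1 (0 to 8 counts) were low, apart from RXFP1 in the EEM of IVP10 (67 counts) and IVPF13 (34 counts).

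The regulators of FSHB in the pituitary were checked as a list of activins, inhibins, follistatins and their receptors and SMADs. In the EEM 0 of the 12 genes tested between procedures were called by edgeR's quasi-likelihood test (3.81% of all genes), against 2 at an unadjusted p under 0.05 (13.7% of all genes). In the ED 3 of 14 were called, each lower in IVP embryos, beside 4.95% of all genes in that direction. They were INHA, the inhibin alpha subunit (2 to 13 counts in IVP and 10 to 73 in IVV embryos, log2 difference -2.12, adjusted p = 0.00755), the inhibitory SMAD7 (-1.33, adjusted p = 0.00237) and the decoy receptor BAMBI (-1.01, adjusted p = 0.0338). INHA had 10 counts or more in 2 of 7 IVP and 9 of 9 IVV libraries of the ED. It thus passed the filter through the IVV embryos, where it is high, and its call is no support for the list. The median over the 14 genes was -0.155, against -0.00784 over all genes tested.

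Between the tissues 6 of the 13 genes of this list tested were called, all higher in the ED beside 12.8% of all genes, with a median of -0.283 against 0.0847 over all genes. INHBA, the activin A subunit, was lower in the EEM by a log2 difference of -2.33 (adjusted p = 0.000656 in edgeR's quasi-likelihood test). It held 10 to 37 counts in the ED of IVP, 3 to 91 in the ED of IVV, 0 to 9 in the EEM of IVP and 0 to 12 in the EEM of IVV embryos, and it passed the filter mainly through the ED. BAMBI (-0.95), SMAD7 (-1.08) and ACVR2B, an activin receptor (-0.66), were further ones. INHA had 0 counts in all 14 EEM libraries. The bearing of these values on FSHB, which was chosen for its tissue difference, was not tested.

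GnRH and kisspeptin genes gave no call in any of the 4 comparisons by edgeR's quasi-likelihood test, with 1 or 2 of the 4 genes tested in each and 0 at an unadjusted p under 0.05. Over all genes 3.81% (EEM), 6.34% (ED), 21% (tissues) and 1.02% (interaction) were called. GNRHR, the receptor through which GnRH acts on gonadotropes, had 0 to 2 counts. Of the other markers of pituitary cells, TSHB was at 0 in all groups, GH1 and PRL were at the floor, and POMC held 57 to 271 counts. The gonadotrope factor NR5A1 had 7 to 245 counts.

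Of 17 transcription factors of gonadotropes, 4 of 12 tested were called in the EEM, each lower in IVP embryos, where 1.52% of all genes were. FOS (-2.90, adjusted p = 9.39e-06), EGR1 (-2.27, adjusted p = 5.62e-05), ATF3 (-1.79) and JUN (-2.12) were these genes in edgeR's quasi-likelihood test, and all are immediate early genes of many cell types as well. EGR1 had 1273 to 8113 counts in the EEM of IVP and 9010 to 33413 in the EEM of IVV embryos. In the ED FOS, EGR1 and ATF3 were called, also lower in IVP embryos as were 4.95% of all genes. The 13 genes tested there include LHX4. LHX4, a LIM homeodomain factor, was at 0 or 1 count in the ED of IVP and 0 to 111 in the ED of IVV embryos. LHX4 had the reverse distribution in the EEM, with 0 to 102 counts in IVP and 0 or 1 in IVV embryos. It passed the filter only through the groups where it is high and so had to differ, and it is given as counts with no p or fold and is left out of the calls. Between the tissues FOS (0.66) and JUN (0.84) were higher in the EEM, 2 of 12 tested, beside 8.16% of all genes.

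Among the 4 enzymes that build the sulfated sugar chains of pituitary hormones, CHST8, a sulfotransferase, was called, having passed the filter mainly through the ED of IVV embryos, where it is high. It had 3 to 17 counts in the ED of IVP and 33 to 139 in the ED of IVV embryos (log2 difference -3.15, adjusted p = 0.00016 in edgeR's quasi-likelihood test). In the EEM it had 3 to 9 counts in IVP and 5 to 24 in IVV embryos, and it was higher in the ED than in the EEM (EEM minus ED -1.78, adjusted p = 0.00207). CHST8 had 10 counts or more in 2 of 7 IVP and 9 of 9 IVV libraries of the ED. In the EEM this held in 0 of 6 IVP and 4 of 8 IVV libraries. Its calls are therefore no support for the list.

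Below the receptors, cAMP signalling genes were called in both directions. In the EEM 2 of 21 were higher in IVP embryos (2.29% of all genes), the adenylate cyclase ADCY1 (1.96, adjusted p = 0.003 in edgeR's quasi-likelihood test) and the phosphodiesterase PDE4A (1.54, adjusted p = 0.0132). In the ED 3 of 23 were lower in IVP embryos (4.95% of all genes), the kinase subunit PRKAR2B (-1.79) and the phosphodiesterases PDE4B (-2.26) and PDE4D (-1.20). Between the tissues 7 of 21 were higher in the ED (12.8% of all genes), led by PRKAR2B (-2.25) and the catalytic subunit PRKACB (-1.53), and ADCY9 (0.56) was higher in the EEM. The interaction gave 0 of 24 calls (1.02% of all genes), with 9 at an unadjusted p under 0.05 (10.3% of all genes).

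Of 10 tested genes that FSH raises in granulosa cells, 4 were higher in the EEM than in the ED by edgeR's quasi-likelihood test, beside 8.16% of all genes. These were the growth factor AREG (1.12, adjusted p = 2.57e-05), the steroidogenic enzymes CYP11A1 (0.61) and HSD17B1 (0.72), and the cyclin CCND2 (0.49). GREB1 (-0.75) was higher in the ED, beside 12.8% of all genes. It was also the 1 gene of 10 called between procedures in the ED, lower in IVP embryos (-0.89, adjusted p = 0.0366), beside 4.95% of all genes. In the EEM 0 of 10 were called between procedures (3.81% of all genes) and 3 had an unadjusted p under 0.05 (13.7% of all genes).

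The genes beside FSHB in the cattle annotation had rho values with it between -0.451 and 0.0242 over the 14 EEM libraries, where they had counts. ARL14EP, the next gene on one side, had 1199 to 6872 counts, with a rho of -0.0945. On the other side LOC787432 had no counts, KCNA4 had 42 to 336 counts (rho -0.0549), and MAD2L1 had 7660 to 38133 (rho 0.0242). MPPED2, beyond ARL14EP, had 4 to 87 counts (rho -0.451). Beside CGA, over the same libraries, rho with CGA was 0.73 for the pseudogene LOC509829 (0 to 118 counts), 0.608 for HTR1E (0 to 7 counts), 0.0593 for ZNF292 and -0.476 for GJB7 (0 to 15 counts). These correlations are descriptions over libraries that share embryos and procedure with one another.

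The gene most like FSHB over all 30 libraries, by Spearman's rho of log2 CPM among 14308 genes, was KRT6A (rho 0.797), a keratin of stratified epithelia. FAM20A (0.72), DOK3 (0.686), LAX1 (0.661) and H2BC5 (0.66) came next. Among the 14 EEM libraries KRT6A (0.842) came after C22H3orf22 (0.869), CTRC (0.859), SMIM32 (0.857) and DACT1 (0.855). By Pearson's r it was first in the EEM and over all libraries. Among the 16 ED libraries a different set led, with JAKMIP1 (0.947), LY6H (0.903), LVRN (0.9), CLDN19 (0.897) and APBA2 (0.882). CGA stood at a rho of -0.432 with FSHB over all libraries, -0.42 in the EEM and -0.0765 in the ED.

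KRT6A had 10 to 133 counts in the ED of IVP, 29 to 299 in the ED of IVV, 28 to 211 in the EEM of IVP and 37 to 384 in the EEM of IVV embryos. Its mean was 1.29 ± 0.994 CPM (SD, n = 7), 1.95 ± 1.52 CPM (n = 9), 2.15 ± 1.56 CPM (n = 6) and 3.94 ± 2.62 CPM (n = 8) in this order. The groups of KRT6A stood in the same order as those of FSHB, and the groups overlapped. The points share embryos, tissue and procedure, and no p is given.

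**Figure D5:**
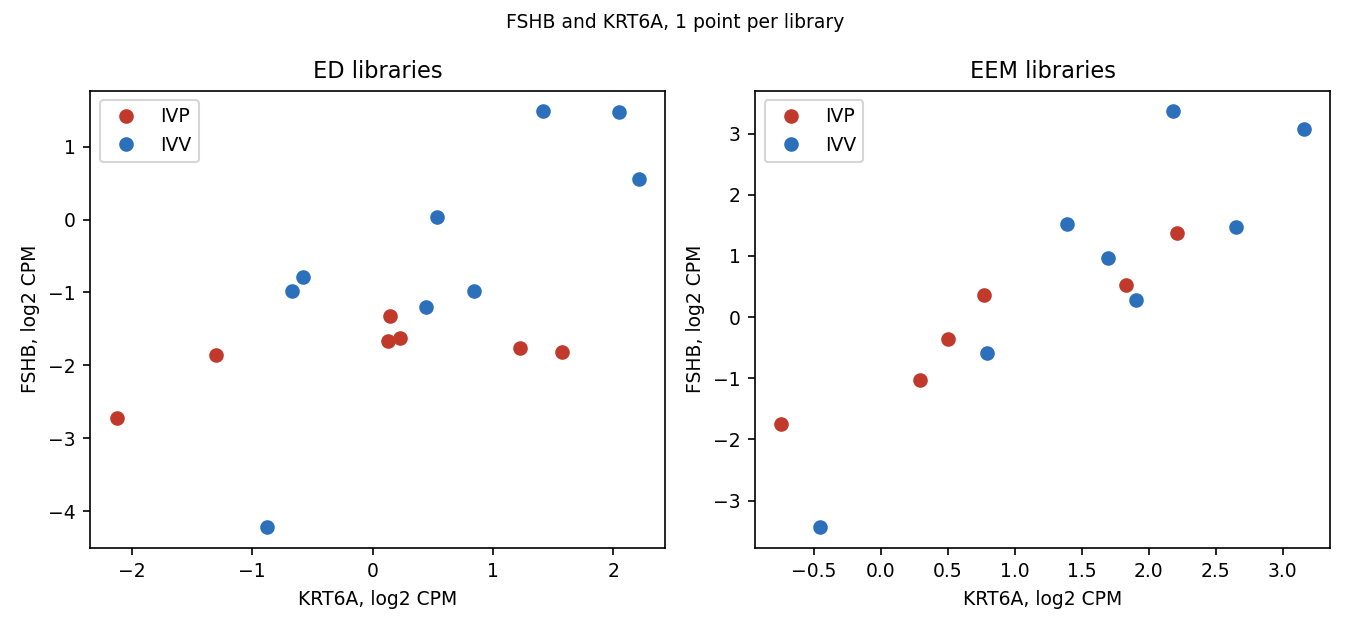
log2 CPM of FSHB (vertical) against log2 CPM of KRT6A (horizontal) in the 16 ED libraries (left) and the 14 EEM libraries (right), 1 point per library, with red for IVP and blue for IVV embryos. Over the EEM libraries rho is 0.842, and the lowest FSHB point in each panel is the IVV embryo VE4.

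Markers of the cell types in each lineage were set beside FSHB within each group. The trophoblast score, a mean of centred log2 CPM over the list, had r = 0.853 with FSHB in the EEM of IVP embryos (exact permutation p = 0.0403, adjusted p = 0.136, n = 6, rho 0.829) and r = -0.694 in the ED of IVV embryos (permutation p = 0.0315, adjusted p = 0.136, n = 9, rho -0.667). In the other 2 groups it was 0.407 (ED of IVP) and -0.045 (EEM of IVV). The hypoblast score had r = 0.694 and rho = 0.81 in the EEM of IVV embryos (exact permutation p = 0.0486 and 0.0218, adjusted p = 0.136 and 0.102, n = 8). In the other 3 groups its r ran from -0.242 to 0.0514. Without the 2 libraries farthest from the median of the score, the r of 0.853 was 0.706, that of -0.694 was -0.517 and that of 0.694 was 0.816. Smaller values moved more, from 0.407 to 0.847 for trophoblast in the ED of IVP, from -0.045 to -0.533 for trophoblast in the EEM of IVV and from -0.0129 to -0.742 for hypoblast in the EEM of IVP embryos. None of the score relations passed the adjusted threshold, and their direction changed between groups.

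Markers of maternal tissue and of the pituitary were read as whole lists. The summed CPM of the endometrium list was 0.689 to 2.68 in the ED of IVP, 1.33 to 3.56 in the ED of IVV, 0.621 to 2.25 in the EEM of IVP and 0.728 to 1.87 in the EEM of IVV embryos. In it PAEP was at 0 and SERPINA14 was at the floor in all groups, while the progesterone receptor PGR had 11 to 115 counts. In the ED of IVV embryos IGFBP1 reached 152, OXTR 51, LTF 43 and HOXA10 and HOXA11 each 14 counts. ESR1 reached 41 counts in the ED of IVP embryos. The maternal blood list summed to 3.24 to 16.8, 6.3 to 42.3, 1.24 to 3.87 and 0.394 to 8.16 CPM in the same order, nearly all of it ALAS2, a haem synthesis enzyme, with 19 to 2405 counts. The haemoglobin genes of that list were at or under the floor in both EEM groups. In the ED, HBA reached 21 counts in IVP embryos, and HBA1 reached 8 and PTPRC 64 counts in IVV embryos. The pituitary list summed to 2.15 to 6.44, 2.35 to 6.72, 2.88 to 6.66 and 2.31 to 4.17 CPM, mostly POMC and NR5A1. The hypoblast list summed to 1890 to 4360, 1630 to 3310, 2380 to 4290 and 1900 to 3810 CPM, and the mesoderm list to 6.89 to 16.3, 29.1 to 134, 1.22 to 7.28 and 3.44 to 8.1 CPM. In the ED 7 of 8 mesoderm genes were lower in IVP embryos by edgeR's quasi-likelihood test, beside 4.95% of all genes, of which FLI1 did not rise above the floor in the 7 IVP libraries. The part of the cell make-up in the values of FSHB was not tested.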

How the data were processed

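Poly(A) RNA of the ED and EEM was sequenced as paired reads. Per the labels and the study's methods, the authors used STAR 2.7.0b for alignment to ARS-UCD1.3 and featureCounts of Subread 2.0.3 for counting. The deposited values are counts of 35092 Entrez gene IDs in each library, not normalized. Small even counts were in excess (19289 entries of 2 against 15257 of 1 and 13344 of 3). Symbols came from RefSeq of ARS-UCD2.0 (31630 IDs), used for names and neighbours only.

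Low genes were filtered with filterByExpr (minimum 10). Procedures were compared within tissue with edgeR 4.0.16 (R 4.3.3; TMM, quasi-likelihood test, Benjamini-Hochberg adjustment over all genes, threshold 0.05) and 1 surrogate variable from sva 3.50.0, and tissues and the interaction in the 26 libraries of 13 embryos with embryo as a paired block, since both tissues came from the same animal. log2 CPM used a prior count of 2. Permutation tests were exact up to 8 libraries for correlations and used 100000 resamples for 9. Alternatives included DESeq2 1.42.0 and leaving out each embryo. Scripts were tested on simulated data. The members and gene lists were chosen with earlier results of these data known. The rule for named genes took all members, all subunit and receptor genes, called genes of the other pathway lists (at most 4 a direction), gene neighbours and the 5 genes most like FSHB, and cell type lists are given mainly as sums and counts; XIST, the counts shown for INHBA and LHX4, and marker genes outside this rule were chosen after their values were seen.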

Additional observations from a re-analysis of the deposited data

Results flagged for a closer look

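Of 20 groups of 6 to 9 libraries, 3 held a library that stood apart from the others by Dixon's criterion, where chance gives about 1 in 20. Gaps and ranges were taken on log2 CPM, not on the counts shown. In the ED of IVP embryos, IVPF14 had 6 FSHB counts (0.116 CPM) and the other 6 had 11 to 19, with a gap of 0.621 of the range against a limit of 0.568. In the ED of IVV embryos, VE4 had 1 FSHB count (gap 0.529 of the range, limit 0.493), and its EEM had 3 counts, the lowest of that tissue. IVPF14 also had 0 LHCGR counts in the ED, where the other 6 had 4 to 9 (gap 0.604, limit 0.568), and 0 FSHR counts there. Gaps between LHCGR values amount to a few counts.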

How the results depend on the processing

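CGA between the tissues kept its direction and its side of the threshold in 18 of 18 alternatives (log2 -2.29 to -1.85). In the EEM, CGA between procedures ran from 1.72 to 2.37 with single embryos left out and was called each time. It lost the call with no surrogate variable (1.56, adjusted p = 0.0931), without the IVP embryos titled without F (2.22, adjusted p = 0.102) and with XIST as a covariate (1.79, adjusted p = 0.473). FSHB in the EEM ran from -2.09 to -0.93 with single embryos left out, and was called without VE19 (-1.69, adjusted p = 0.000261) and with XIST (-3.13, adjusted p = 0.0452). FSHB in the ED ran from -2.21 to -1.64, called without IVP11, VE24, VE26, VE4 or VE6 in turn, and also with no surrogate variable (-2.12, adjusted p = 0.0217), by DESeq2 (-1.97, adjusted p = 0.00726), with no filter on low counts (-2.03, adjusted p = 0.0287) and with XIST (-2.87, adjusted p = 0.0132). XIST, added after seeing the data, turned LHB to 0.22 in the EEM and 0.18 in the ED and FSHR to 0.48 in the EEM. With single embryos left out FSHR in the EEM ran from -0.33 to 0.28, the FSHR interaction from -0.0725 (without IVPF14) to 0.98 and the LHB interaction from -0.44 to 0.0526 (without IVPF14). The cause of these changes was not tested.

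Called genes in the EEM numbered 96 without IVP embryos titled without F, 146 with XIST and 1211 with no filter, against 561. In the ED they numbered 240 without IVPF embryos, 656 without IVP embryos titled without F, 1512 by DESeq2 and 1846 with no filter, against 998, and 639 (without VE29) to 1160 with single embryos left out. Without the replicate block, 1859 genes were called between tissues against 3124 with it. The interaction then had 301 calls against 172, and FSHR in it was -0.46. Among the members fitted both ways with a test, leaving out the block changed no call. DESeq2 gave 435 and no filter 356 interaction calls. With single embryos left out there were 101 (without VE29) to 211, with 104 without VE28 and 109 without IVP10 or IVPF14. Of the 5 genes most like FSHB, Pearson's r in place of rho shared 2 over all libraries, 1 in the EEM and 1 in the ED. Levels per transcript length and a search of the FSHB promoter for motifs were not run, because neither lengths nor sequences were among the references used here. FSHR, LHCGR and FSHB of VE4 lie within a few counts of the floor, which limits what can be read from them.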
